A study of Mus musculus with 13 samples.

Results

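The 9 genes described here carry the signal of type I interferon from the cell surface to the nucleus: Ifnar1 and Ifnar2, the receptor subunits, Jak1 and Tyk2, the kinases bound to them, Stat2 and Irf9, which form the transcription factor ISGF3 with a further STAT protein, and Irf1, Irf3 and Irf7, interferon regulatory factors. They were chosen by name, as 9 of the 54307 gene entries in a count table of 13 mouse brain libraries, and all 9 were expressed highly enough to be tested. RNA came from the whole brain of C57BL/6 mice of 4 genotypes of Adar, the gene of the RNA editing enzyme ADAR1: wild type (n = 3, at 48, 48 and 74 days of age), P195A/+ (n = 3, 43 days), P195A/P195A (n = 4, 42 or 48 days) and P195A/- (n = 3, 42 days), each genotype with 1 male. P195A is a substitution in the part of the long ADAR1 form that binds Z-form nucleic acid. The longer label of the P195A/- animals names P195A on either side of the slash and AdarKO/+ besides, which the labels do not explain, and no treatment is given for any group.

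Type I interferons bind the receptor pair IFNAR1 and IFNAR2, whose kinases TYK2 and JAK1 phosphorylate STAT proteins. ISGF3 then moves to the nucleus and binds interferon-stimulated response elements (ISRE) in the promoters of antiviral genes, among them Stat2, Irf7 and Irf9 themselves. IRF3 and IRF7 act upstream, since sensors of foreign or unedited double-stranded RNA activate them to transcribe the interferon genes, and ADAR1 is known for keeping cellular RNA from those sensors.

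Library totals ranged from 13539148 to 22399005 estimated counts. Adar, the altered gene, lay between 165 and 189 CPM for wild type, between 232 and 245 for P195A/+, between 282 and 346 for P195A/P195A, and between 196 and 204 for P195A/-. CPM are a gene's counts scaled to the library total, after TMM scaling between libraries. The ranges of the genotypes did not overlap. In the edgeR test described below, Adar differed between P195A/P195A and wild type (log2 fold change 0.84, adjusted p = 5.91e-05). It also differed between P195A/- and P195A/P195A (-0.68, adjusted p = 0.000774), and it did not pass in the other comparisons. The labels give no expected Adar level for a genotype, so these levels were not used to check them. P195A/P195A replicates 2 and 3 stood at the ends of the first principal component (53.5 and -49.1; 20.4% of the variance), and P195A/- replicate 3 had 1.57% mitochondrial counts against 0.457 to 0.79% in the others. Markers of neurons, astrocytes, oligodendrocytes and microglia were detected in every genotype, with none of their lists' genes at 0. In RNA of a whole brain, fewer cells of a type and less RNA per cell cannot be told apart.

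Per kilobase of merged exons, wild-type levels spanned from 27.2 CPM per kb for Jak1 to 0.308 for Irf7. Ifnar1 was second, at 11.2 ± 0.396 CPM per kb (SD, n = 3), followed by Stat2 at 4.00 ± 0.435 and Irf3 at 3.398 ± 0.476. Ifnar2 (2.00 ± 0.533), Tyk2 (1.98 ± 0.289) and Irf9 (1.92 ± 0.313) did not differ beyond their spread by this measure, and neither did Stat2 and Irf3. Merged exons join the exons of every annotated transcript. They cover all 3776 bases of Irf7 and 5386 of the 6460 bases of Irf9, so the order of genes per kb depends on the length used. Irf1 stood at 0.868 ± 0.276 and Irf7 at 0.308 ± 0.0566 CPM per kb. Irf7 was thus the least abundant of the 9, with 10 to 54 counts in a library, against 2449 to 4609 for Jak1.

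The promoters of the 9 genes were searched for the sequences that ISGF3 and other STAT dimers bind, because ISGF3 is known to induce some of the genes that encode the pathway. RefSeq (GRCm38.p6) held 11 promoters of the 9 genes, 1 each except for Irf1 and Irf9 with a pair, taken from 250 bases before to 50 after the start. The ISRE core, GAAA and GAAA separated by any 2 bases, sought on both strands, was found in 1 of the 11 and in 3.44% of all 32851 mouse promoters of the same length. The gamma-activated site TTCNNNGAA, which reads alike on both strands, was found in 3 of the 11 and in 8.3% of all. No promoter held both. The 4 matches are shown in capitals within 30 bases of the gene's strand, 5′ to 3′:
Stat2: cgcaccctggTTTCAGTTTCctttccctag
Ifnar1: ggcgggggcgTTCACGGAAggggcggggcg
Ifnar2: tgccaaggccTTCCTGGAAgaagagagtac
Irf1: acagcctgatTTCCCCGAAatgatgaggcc
The Stat2 match lay on the opposite strand at position -222 of the promoter at chr10:128270248-128270547. The matches of Ifnar1, Ifnar2 and Irf1 lay at -5 (chr16:91484965-91485264), -214 (chr16:91372533-91372832) and -90 (chr11:53769764-53770063). Neither motif was found in the promoters of Jak1, Tyk2, Irf3, Irf9 or Irf7. The promoter of Irf7, the gene whose levels differed most between the genotypes, is printed whole (chr7:141266375-141266674, minus strand), with no capitals because neither motif is in it:
Irf7: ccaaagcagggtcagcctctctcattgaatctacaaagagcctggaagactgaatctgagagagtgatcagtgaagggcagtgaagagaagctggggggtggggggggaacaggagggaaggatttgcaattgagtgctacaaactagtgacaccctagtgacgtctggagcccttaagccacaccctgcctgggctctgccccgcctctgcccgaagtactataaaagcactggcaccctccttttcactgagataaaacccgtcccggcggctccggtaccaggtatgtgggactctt
These matches describe letters in a window and were not tested for binding.

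Each gene was compared between genotypes with edgeR's quasi-likelihood test over all 13 libraries, and p-values were adjusted by the Benjamini-Hochberg method over 19962 genes, a gene passing at an adjusted p under 0.05. None of the 9 genes passed in any of the 5 comparisons made. Of all genes tested, 0.01% passed for P195A/+ against wild type, 0.0501% for P195A/P195A against wild type and 0.0351% for P195A/- against wild type, 0.0401% for P195A/- against P195A/P195A and 0.0301% for P195A/- against P195A/+, so few genes of any kind were called. At an unadjusted p under 0.05, 0 of 9 genes differed in the first and second comparisons and 1 of 9, Irf7, in each of the others. DESeq2 and limma-voom gave the same counts of listed genes at that level. Of all genes, 4.48%, 5.89%, 10.6%, 6.82% and 11.5% had such a p in the same order. The comparisons share libraries, since wild type enters the comparisons against it and P195A/- the last 3, so their values are set side by side and are not independent of each other. No P195A/+ animal had the age of a wild-type animal (43 days against 48 and 74), so age and genotype cannot be told apart between them.

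**Figure D1:**
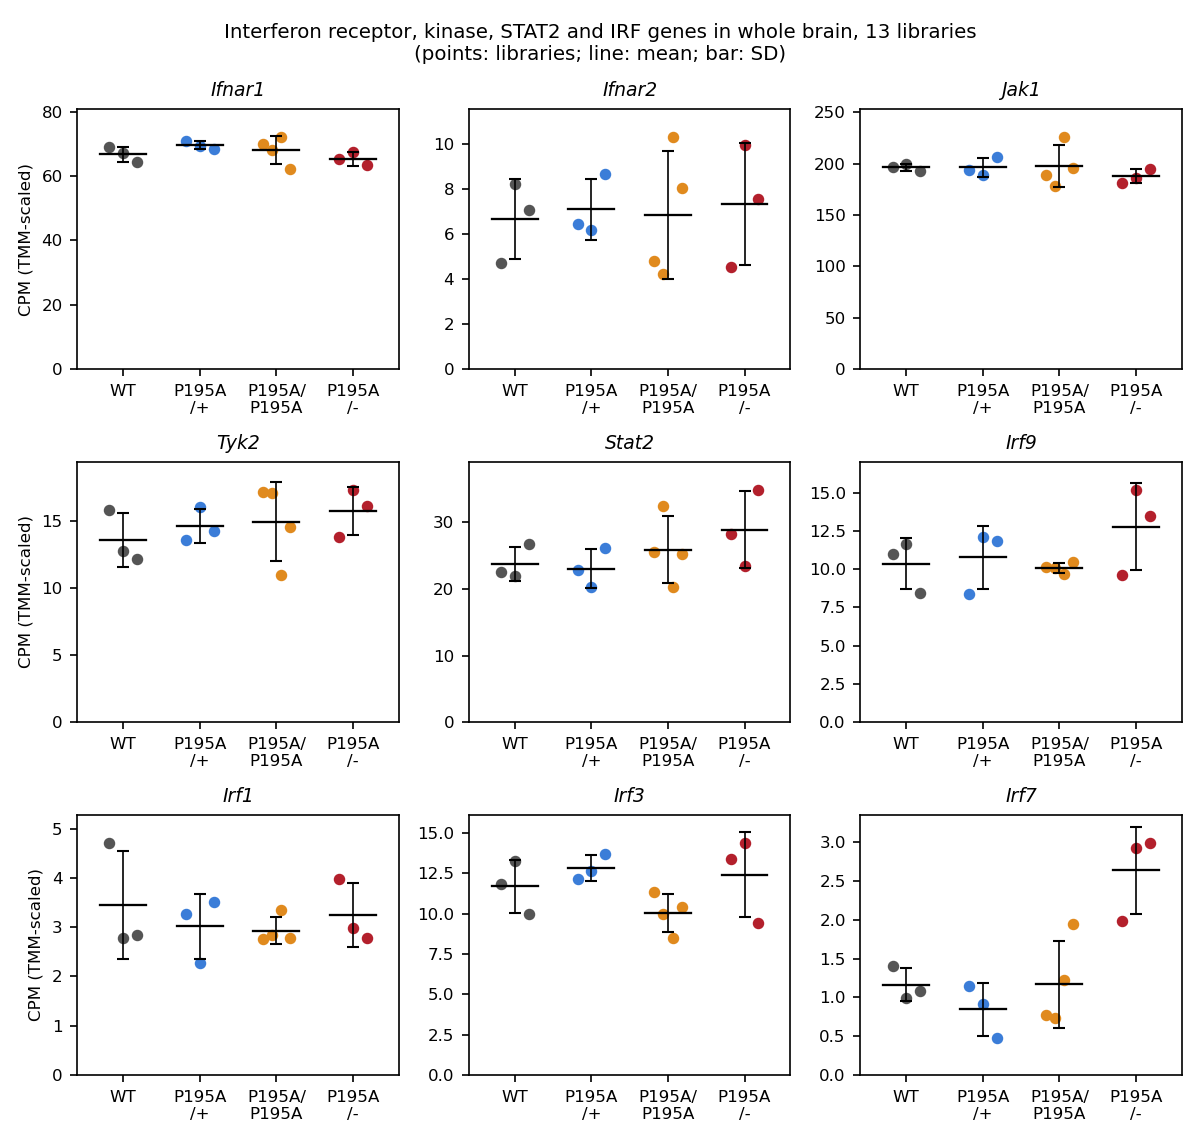
Levels of the 9 genes in the 13 libraries, in CPM after TMM scaling on axes that start at 0. Points are libraries, the line is the mean of a genotype and the bar its SD; Irf7 is the panel in which all 3 P195A/- libraries (1.99 to 3.00 CPM) stand above the other 10.

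Irf7 encodes the factor that drives most interferon alpha genes and is itself induced by interferon, and it was the gene of the 9 whose level stood apart in P195A/-. Its levels were 1.404, 0.999 and 1.08 CPM in the wild-type libraries, 1.15, 0.919 and 0.476 in those of P195A/+, 0.778, 0.730, 1.23 and 1.95 in those of P195A/P195A, and 1.99, 2.93 and 3.00 in those of P195A/-. All 3 P195A/- libraries were above all 10 others, although the lowest of them, at 1.99, was close to the highest P195A/P195A library, at 1.95. All P195A/- animals were 42 days old, as were P195A/P195A replicates 1 and 2, but no animal of wild type or P195A/+. Against wild type and P195A/+, age and genotype therefore cannot be told apart. Within P195A/P195A, Irf7 was at 0.778 and 0.730 CPM at 42 days and at 1.23 and 1.95 at 48 days. The P195A/- mean was 2.64 ± 0.562 CPM (SD, n = 3). The wild-type mean was 1.16 ± 0.214 (n = 3), that of P195A/P195A 1.17 ± 0.564 (n = 4) and that of P195A/+ 0.847 ± 0.341 (n = 3).

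Against wild type, the log2 fold change of Irf7 in P195A/- was 1.18 (SE 0.407; 95% interval 0.32 to 2.05), with an unadjusted p of 0.0103 and an adjusted p of 0.314 by edgeR. Against P195A/P195A it was 1.16 (SE 0.377; interval 0.36 to 1.96), with an unadjusted p of 0.00729 and an adjusted p of 0.57. The difference from P195A/+ was 1.64 (SE 0.418; interval 0.76 to 2.53), with an unadjusted p of 0.0012 and an adjusted p of 0.169. The intervals exclude 0 for this gene taken alone, but in a search over all genes none of the 3 differences was called. Ranges that did not overlap were found for 0 of 9 genes in P195A/+ and in P195A/P195A against wild type, beside 11.9% and 6.48% of all genes. In P195A/- they were found for 1 of 9 against wild type (20.1% of all genes), 1 of 9 against P195A/P195A (6.64%) and 2 of 9 against P195A/+ (18.1%). In the direction of Irf7, with P195A/- higher, they were found for 9.59% of all genes against wild type, 2.64% against P195A/P195A and 8.37% against P195A/+. Without P195A/- replicate 3, the library with the high mitochondrial share, the difference from P195A/P195A was 1.06 (unadjusted p = 0.02814 by edgeR, adjusted p = 0.77).

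In the genotypes that keep a wild-type allele or carry P195A on both alleles, Irf7 differed from wild type by less than the spread between animals. The difference was -0.46 (SE 0.428; interval -1.36 to 0.45) in P195A/+ and 0.02 (SE 0.393; interval -0.81 to 0.86) in P195A/P195A. At 10 to 33 counts a library these intervals are wide, and changes within them were not detectable. A test for any difference among the 4 genotypes gave an unadjusted p of 0.0045 for Irf7 (adjusted p = 0.347 by edgeR), the only one of the 9 genes under 0.05 in that test, which 8.59% of all genes reached and in which 0.115% passed. Irf7 lies within a single span of 3776 bases on chromosome 7 (141262706 to 141266481, minus strand in GENCODE M21, GRCm38) and overlaps Phrf1 on the opposite strand; no source used here gives the strand setting of the counting.

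**Figure D2:**
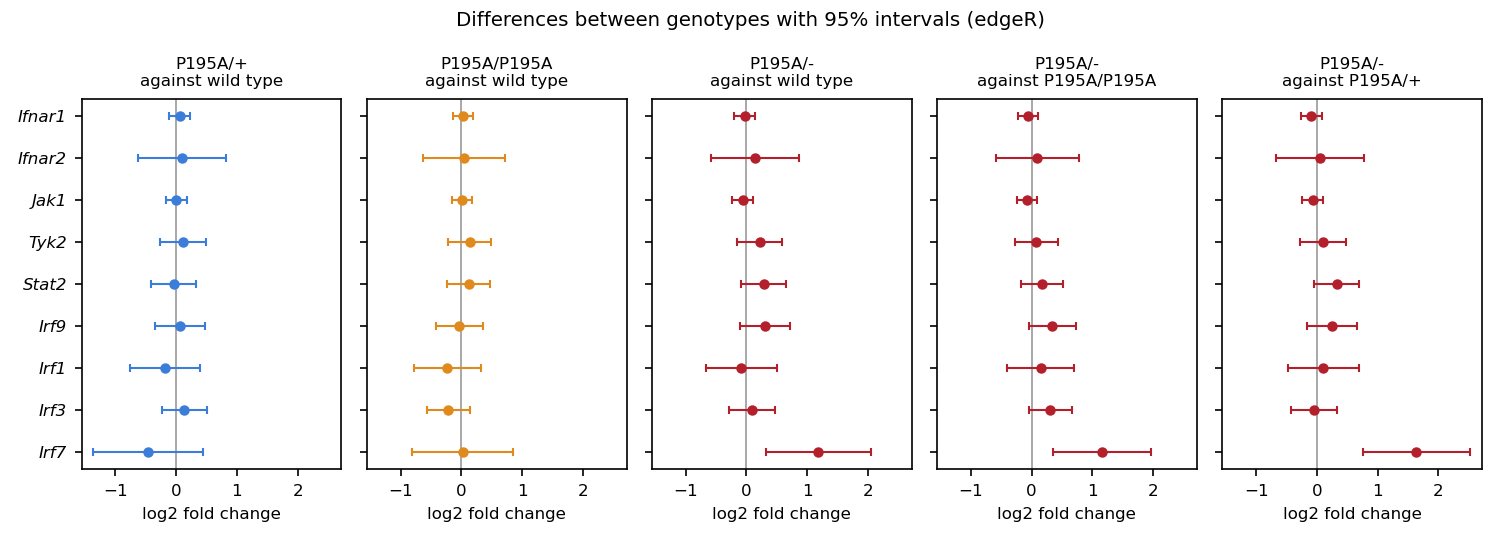
Log2 fold changes of the 9 genes in the 5 comparisons (points) with 95% intervals (bars) from edgeR. Only the intervals of Irf7 in the 3 comparisons of P195A/- lie wholly on one side of 0, at 0.32 to 2.05, 0.36 to 1.96 and 0.76 to 2.53.

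Stat2 and Irf9, the parts of ISGF3 measured here, had their highest means in P195A/-, without separation from the other genotypes. Stat2 stood at 22.5, 21.98 and 26.7 CPM in the wild-type libraries, 22.8, 20.3 and 26.1 in those of P195A/+, 25.5, 32.5, 20.2 and 25.2 in those of P195A/P195A, and 28.3, 23.5 and 34.9 in those of P195A/-. The P195A/- range overlapped those of the other genotypes, and the second highest library of all was P195A/P195A replicate 2. The log2 fold change of P195A/- against wild type was 0.28 (SE 0.176; unadjusted p = 0.125, adjusted p = 0.589 by edgeR), and against P195A/+ it was 0.33 (SE 0.176; unadjusted p = 0.0817, adjusted p = 0.507). Without P195A/- replicate 3 these values were 0.14 and 0.18, and without P195A/- replicate 2 they were 0.41 and 0.45.

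Irf9, the DNA-binding subunit of ISGF3, was at 11.01, 11.6 and 8.45 CPM in the wild-type libraries, 8.35, 12.1 and 11.8 in those of P195A/+, 10.1, 10.1, 9.68 and 10.5 in those of P195A/P195A, and 9.65, 15.2 and 13.49 in those of P195A/-. Replicates 2 and 3 of P195A/- were above all 10 libraries of the other genotypes, and replicate 1 was below the lowest P195A/P195A library. The log2 fold change was 0.30 against wild type (SE 0.194; unadjusted p = 0.136) and 0.34 against P195A/P195A (SE 0.182; unadjusted p = 0.0786), with adjusted p of 0.597 and 0.79 by edgeR. Without P195A/- replicate 1, the first of these was 0.46 and the second 0.51, at unadjusted p of 0.031 and 0.0151 by edgeR. Without P195A/- replicate 2 they were 0.16 and 0.20, at unadjusted p of 0.466 and 0.335 by edgeR, and without wild-type replicate 3 the first was 0.17. Irf9 (chr14:55603571-55610030) overlaps Rnf31 on its own strand, so that counts could be divided between the 2 genes.

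The receptor subunits did not differ between genotypes beyond the spread of animals. Ifnar1, the subunit that TYK2 binds, was among the steadiest genes, at 68.9, 67.2 and 64.3 CPM in the wild-type libraries, 70.9, 69.3 and 68.4 in those of P195A/+, 70.0, 68.2, 72.2 and 62.3 in those of P195A/P195A, and 65.3, 67.5 and 63.3 in those of P195A/-. The highest library was 1.16-fold the lowest, and both were P195A/P195A animals. All 3 P195A/- libraries lay below all 3 P195A/+ libraries, with a log2 fold change of -0.09 (SE 0.081; interval -0.26 to 0.08; unadjusted p = 0.289 by edgeR), a separation that 9.74% of all genes showed in that direction. Against wild type the interval for Ifnar1 was -0.20 to 0.14 in P195A/-.

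Ifnar2, which carries the binding sites for JAK1 and STAT2 and also exists as a soluble form, varied far more from animal to animal. It was at 4.72, 8.20 and 7.05 CPM in the wild-type libraries, 6.44, 6.19 and 8.65 in those of P195A/+, 4.79, 4.23, 10.3 and 8.02 in those of P195A/P195A, and 4.54, 9.95 and 7.55 in those of P195A/-. Low libraries of about 4 to 5 CPM occurred in 3 of the 4 genotypes, and the lowest and the highest of all were P195A/P195A replicates 2 and 3, the libraries at the ends of the first principal component. The log2 fold changes lay between 0.05 and 0.14 in the 5 comparisons, with SE of 0.319 to 0.341. For P195A/- against wild type the interval ran from -0.58 to 0.87, and changes within it were not detectable. Without P195A/P195A replicates 2 and 3, a choice made after seeing the data, the difference of P195A/P195A from wild type went from 0.05 to -0.07.

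The receptor genes are neighbours in the genome. Ifnar2 (chr16:91372783-91405589), Il10rb, Ifnar1 (chr16:91485238-91507441) and Ifngr2 lie in this order on the plus strand of chromosome 16 within 193 kb (GENCODE M21, GRCm38). Il10rb, a subunit of the interferon lambda and interleukin 10 receptors, had a log2 fold change of -0.44 in P195A/- against wild type (SE 0.296; unadjusted p = 0.155 by edgeR), and Ifngr2, a subunit of the interferon gamma receptor, of -0.03 (SE 0.137; unadjusted p = 0.834 by edgeR). Ifnar2 overlaps the gene Gm21970 on the same strand, so that counts could be divided between them.

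The kinases likewise gave no call. Jak1, the most abundant of the 9, was at 197, 199.8 and 193 CPM in the wild-type libraries, 194, 189 and 206 in those of P195A/+, 189, 179, 226 and 196 in those of P195A/P195A, and 182, 186 and 195.1 in those of P195A/-. Jak1 spans chr4:101152367-101265282 on the minus strand. Its extremes were P195A/P195A replicates 2 and 3. Its intervals were narrow, from -0.24 to 0.11 for P195A/- against wild type and from -0.15 to 0.17 for P195A/P195A against wild type.

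Tyk2 was at 15.8, 12.7 and 12.2 CPM in the wild-type libraries, 13.6, 16.1 and 14.3 in those of P195A/+, 17.2, 17.1, 10.95 and 14.6 in those of P195A/P195A, and 13.8, 17.3 and 16.1 in those of P195A/-. Every genotype's range overlapped that of every other for Tyk2, which lies at chr9:21104068-21131243 on the minus strand. The largest difference, P195A/- against wild type, was 0.22 (SE 0.177; interval -0.16 to 0.59; unadjusted p = 0.241, adjusted p = 0.687 by edgeR). P195A/P195A replicate 3 had the highest Jak1 and the lowest Tyk2 of all libraries.

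Irf1, an early response gene of interferon gamma signalling, was at 4.72, 2.79 and 2.85 CPM in the wild-type libraries, 3.28, 2.27 and 3.52 in those of P195A/+, 2.75, 2.85, 3.34 and 2.77 in those of P195A/P195A, and 3.98, 2.99 and 2.78 in those of P195A/-. Wild-type replicate 1 was the highest library of all and set the wild-type mean of 3.45 ± 1.099 CPM (SD, n = 3). The log2 fold change of P195A/- against wild type was -0.08 (SE 0.275; interval -0.67 to 0.50), and it was 0.20 without wild-type replicate 1 and 0.033 without P195A/- replicate 3, so its direction was not stable. Irf1 lies at chr11:53770014-53778374 and Stat2 at chr10:128270559-128292849.

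Irf3, which is present before infection and activated by phosphorylation, was at 11.9, 13.2 and 9.98 CPM in the wild-type libraries, 12.1, 12.6 and 13.7 in those of P195A/+, 11.3, 9.997, 8.497 and 10.4 in those of P195A/P195A, and 13.4, 14.4 and 9.44 in those of P195A/-. P195A/P195A held the lowest mean, at 10.05 ± 1.17 CPM (SD, n = 4), with each library inside the joint range of the other genotypes except replicate 3. The log2 fold change was -0.22 for P195A/P195A against wild type (SE 0.167; unadjusted p = 0.207) and 0.30 for P195A/- against P195A/P195A (SE 0.167; unadjusted p = 0.0876), with adjusted p of 0.87 and 0.804 by edgeR. Irf3 lies at chr7:44997648-45002848 and Bcl2l12 overlaps it on the opposite strand.

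The 9 genes had medians slightly above those of all genes, which was not tested as a result for the group. Their median log2 fold changes were 0.06, 0.02, 0.14, 0.15 and 0.10 in the order of comparisons given above, against 0.004, 0.0067, 0.02, 0.0037 and 0.022 over all genes tested. In that order 6, 6, 6, 7 and 6 of the 9 values were above 0, in comparisons that share libraries. Of all 19962 genes tested, 10149, 10258, 10595, 10137 and 10663 were above 0. Apart from Irf7, the largest value of the 9 genes in any comparison was 0.34.

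The genes differed strongly in how much animals of 1 genotype varied. The SD of log2 CPM within genotypes was 0.063 for Ifnar1 and 0.093 for Jak1, against a median of 0.246 over all tested genes. Tyk2, Stat2, Irf9, Irf3 and Irf1 lay between 0.21 and 0.289, near that median, while Ifnar2 (0.491) and Irf7 (0.477) varied most. Over the 13 libraries, after removal of genotype means, Ifnar2 and Jak1 went together (Pearson r = 0.739), and Jak1 and Tyk2 went apart (r = -0.661). Stat2 and Irf9, which act in 1 complex, had r = -0.193, and Irf7 had r of 0.0267 with Irf9 and -0.389 with Stat2. These correlations are descriptions over libraries that share depth and cell composition.

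The interferon genes themselves were all but undetected. Of 18 type I interferon genes listed, 12, including Ifnb1 and 11 interferon alpha genes, had 0 counts in every library, and the other 6 had at most 2 counts in any library. The same 0 was found for Ifng, Ifnl2 and Ifnl3. A count of 0 allows up to 3 counts, or 0.134 to 0.222 CPM in these libraries, and covers counting error only. Of the gamma and lambda receptor subunits, Ifngr1, Ifngr2 and Il10rb were tested in every comparison and none passed or had an unadjusted p under 0.05, while Ifnlr1 reached at most 14 counts and was not tested.

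The other JAK kinases and STAT factors, the regulators that restrain the receptor and the kinases and adaptors that activate IRF3 and IRF7 also gave no gene that passed in any comparison. In P195A/- against wild type the median log2 fold changes were -0.15 for 8 JAK and STAT genes, -0.05 for 13 of 14 negative regulators and 0.07 for 12 activators. The JAK and STAT median was also below 0 in P195A/+ (-0.23) and in P195A/P195A (-0.16) against wild type. Jak2, a kinase of the interferon gamma receptor, was at 55.1 CPM in P195A/- against 62.6 in wild type (-0.18, SE 0.0904), with an unadjusted p of 0.0606 and an adjusted p of 0.494 by edgeR. In P195A/+ it was at 54.0 CPM (-0.21, SE 0.0903, unadjusted p = 0.0318 by edgeR), the 1 of 8 genes lower at that level, beside 2.52% of all genes. P195A/- differed from P195A/+ by 0.03 for Jak2. In P195A/- Jak3 was at 3.54 against 4.52 CPM in wild type (-0.35, SE 0.21), with an adjusted p of 0.577 by edgeR. Irf2, which competes with IRF1 for its sites, differed from wild type by 0.33 (SE 0.201), with an adjusted p of 0.586 by edgeR, and from P195A/+ by 0.63 (SE 0.202), with an unadjusted p of 0.007 and an adjusted p of 0.256 by edgeR. Irf8, a factor of the myeloid lineage, had a log2 fold change of 0.14 (SE 0.264) against wild type. The difference of Irf2 from wild type was 0.072 without P195A/- replicate 1.

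Among the negative regulators, Ptpn11, a phosphatase of the receptor pathway, and Irf2bp2, a corepressor that binds IRF2, had the smallest p in P195A/- against wild type. Ptpn11 was at 216 against 247 CPM (-0.20, SE 0.0704) and Irf2bp2 at 128 against 148 CPM (-0.21, SE 0.0724), with unadjusted p of 0.0128 and 0.0103 and adjusted p of 0.326 and 0.313 by edgeR. These were the 2 of 13 genes of the list under an unadjusted 0.05, both lower, beside 6% of all genes that were lower at that level. Pias1, a SUMO ligase that restrains STAT activity, was lower than in P195A/P195A by 0.26 on the log2 scale at an unadjusted p of 0.00456 and an adjusted p of 0.542 by edgeR, beside 3.63% of all genes that were lower at that level. The median of the 13 regulators tested was -0.05 in P195A/- against wild type, and 6 of them were above 0. Of the activators, Traf3 (0.22, SE 0.108; unadjusted p = 0.0611), Ikbke (0.82, SE 0.444; 0.084) and Tmem173, which encodes STING (-0.59, SE 0.524; 0.273), had the smallest edgeR p against wild type. Leaving out 1 library at a time, Ikbke ranged from 0.19 (without P195A/- replicate 3) to 1.05 and Tmem173 from -1.15 (without P195A/- replicate 2) to -0.31.

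The genes that ISGF3 transcribes were, as a sum, also highest in the P195A/- libraries. Summed over 20 targets, their level was 60.2, 60.1 and 63.5 CPM in the wild-type libraries, 42.8, 48.0 and 48.9 in those of P195A/+, 46.95, 46.3, 55.2 and 50.1 in those of P195A/P195A, and 74.6, 105.8 and 70.8 in those of P195A/-. Every P195A/- library was above every other library, and every P195A/+ and P195A/P195A library was below every wild-type library. As for Irf7, age and genotype cannot be told apart in the differences of P195A/- from wild type and P195A/+, nor in that of P195A/+ from wild type. The log2 fold change of Irf7 in P195A/P195A against wild type was 0.02 with all 4 animals and -0.33 without replicate 4. P195A/- replicate 2 held the highest target sum and replicate 3 the highest Irf7.

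**Figure D3:**
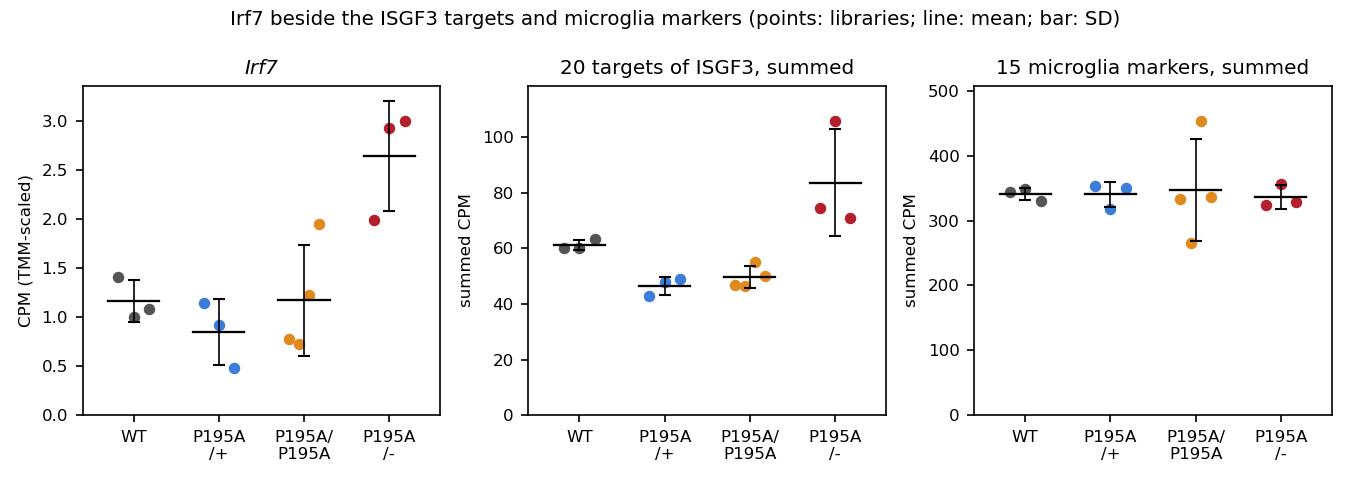
Irf7, the sum of 20 ISGF3 targets and the sum of 15 microglia markers in each library, in CPM on axes that start at 0 (points: libraries; line: mean; bar: SD). P195A/- libraries are highest for Irf7 (1.99 to 3.00) and for the targets (70.8 to 105.8), while their microglia sums (324 to 357) lie within the range of the other genotypes.

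Gene by gene, none of the 17 targets tested passed in any comparison by edgeR with all libraries; without P195A/P195A replicate 3, Ifit3 passed in P195A/- against P195A/P195A. Against wild type, 4 of 17 were higher in P195A/- at an unadjusted p under 0.05, namely Ifit1 (5.60 against 2.54 CPM; 1.14, SE 0.293), Ifi44 (3.59 against 1.25 CPM; 1.52, SE 0.416), Parp14 and Ifih1 (0.63 and 0.67), beside 4.58% of all genes that were higher at that level. The median of the 17 was 0.58 and 16 were above 0. Against P195A/P195A, 10 of 17 were higher (3.19% of all genes), with a median of 0.89, and against P195A/+ 11 of 17 (5.11% of all genes), with a median of 0.91. The list was known to be of interest in these libraries from earlier results, so these counts are descriptions.

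Compared with wild type, the targets lay mostly lower in P195A/+ and P195A/P195A, with 2 and 4 of 17 above 0. In P195A/+ 6 of 17 were lower at an unadjusted p under 0.05 by edgeR, among them Oasl2 at -1.04 (SE 0.305), beside 2.52% of all genes, with a median of -0.58. No P195A/+ animal had the age of a wild-type animal, so age and genotype cannot be told apart here. In P195A/P195A 5 of 17 were lower (2.94% of all genes) and 1, Dhx58, was higher at 1.49 (SE 0.367; 2.96% of all genes were higher at that level), with a median of -0.41. Leaving out 1 library at a time, the lower counts went from 1 (without P195A/+ replicate 1) to 5 in P195A/+ and from 0 (without P195A/P195A replicate 2) to 5 in P195A/P195A. The higher counts in P195A/- went from 3 to 7 against wild type, from 6 to 12 against P195A/P195A and from 8 to 13 against P195A/+, the lowest of each without P195A/- replicate 2, and against wild type also without wild-type replicate 2.

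Usp18, an ISGF3 target whose product binds IFNAR2 and dampens the receptor, was at 3.29 CPM in P195A/-, 1.38 in P195A/P195A, 1.36 in P195A/+ and 2.04 in wild type. Its log2 fold change in P195A/- was 1.25 against P195A/P195A (SE 0.334; unadjusted p = 0.00182, adjusted p = 0.407 by edgeR) and 0.68 against wild type (SE 0.35; unadjusted p = 0.0711). By DESeq2, Ifi44, Ifit1 and Ifit3 passed in P195A/- against P195A/P195A, where it called 0.261% of all genes, while DESeq2 gave no adjusted p to any of the 17 targets against wild type.

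Markers of the cell types that hold much of the brain's interferon response were compared beside these values. The summed level of 15 microglia markers, with none at 0, was 331 to 348 CPM in the wild-type libraries, 318 to 353 in those of P195A/+, 265 to 453 in those of P195A/P195A and 324 to 357 in those of P195A/-, so the P195A/- libraries lay within the range of the others. One microglia marker, Fcrls, was at 9.70 against 19.2 CPM in P195A/- and wild type (-0.99, SE 0.233, unadjusted p = 0.000669, adjusted p = 0.192 by edgeR). It was the only 1 of the 15 under an unadjusted 0.05 in that comparison, beside 6% of all genes that were lower at that level. The median log2 fold change of the 15 was 0.007. Markers of other leukocytes summed to 24.3 to 34.2 CPM in P195A/- and 22.2 to 36.4 in the others. Markers of endothelial cells and pericytes summed to 374.5 to 393.5 CPM in P195A/-, just above the 334.5 to 374.2 of wild type. The sums were 360.3 to 400.3 in P195A/+ and 325.1 to 397.8 in P195A/P195A. Against wild type, 1 of 10, Rgs5, was higher in P195A/- (0.29, SE 0.108, unadjusted p = 0.0165 by edgeR), beside 4.58% of all genes.

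Other marker lists differed between genotypes too, some of them also in comparisons without P195A/-. Oligodendrocyte markers summed to 7343 to 7848 CPM in P195A/- against 6103 to 6871 in wild type and 6188 to 6835 in P195A/P195A. In P195A/+ they summed to 6689 to 8061. Against wild type, 5 of 10 were higher in P195A/- at an unadjusted p under 0.05 by edgeR, beside 4.58% of all genes. In P195A/+ 5 of 10 were higher than in wild type at that level, beside 392 of all 19962 genes. Astrocyte markers summed to 8045 to 8860 CPM in P195A/-, below the 9232 to 10140 of wild type, with 4 of 10 lower at that level, beside 6% of all genes. P195A/P195A overlapped P195A/- at 7996 to 9148, with 5 of 10 lower than in wild type, beside 2.94% of all genes. Olfactory bulb markers summed to 122 to 180 CPM in P195A/-, 138 to 173 in P195A/+, 175 to 183 in wild type and 180 to 228 in P195A/P195A. Of these, 1 of 12, Cdhr1, passed as lower in P195A/- than in P195A/P195A (-1.92, SE 0.29, adjusted p = 0.0253 by edgeR), where 0.0401% of all genes passed. Against wild type, 5 of 12 were lower at an unadjusted p under 0.05 in P195A/+ (2.52% of all genes) and 3 of 12 in P195A/- (6%). In P195A/P195A 4 of 12 were higher (2.96%). As for the targets, age and genotype cannot be told apart in the marker differences of P195A/+ and P195A/- from wild type. The part of the marker differences in the levels of Irf7 was not tested.

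**Figure D4:**
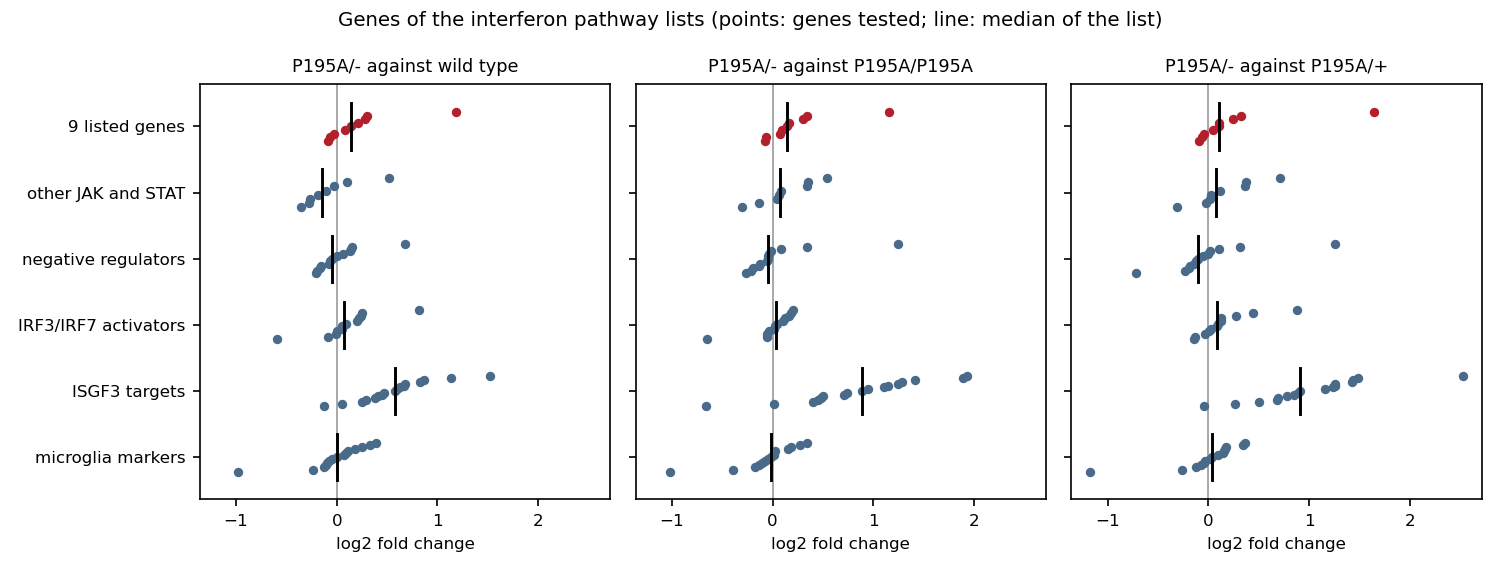
Log2 fold changes of the tested genes of each list in P195A/- against the 3 other genotypes (points: genes; line: median of the list). The medians of the ISGF3 targets are 0.58, 0.89 and 0.91, and those of the 9 genes 0.14, 0.15 and 0.10.

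The genes whose log2 CPM most resembled that of Irf7 over the 13 libraries were Gm49328 (Pearson r = 0.91), Ptprf (0.907), Rrbp1 (0.882), Ssbp4 (0.87) and Prr12 (0.851). Their log2 fold changes in P195A/- against wild type were 0.61, 0.24, 0.46, 0.59 and 0.37, smaller than that of Irf7, and none passed. Stat2 was most like Gm8050 (r = 0.877), Rhod (0.861), Hdlbp (0.855), Gm15496 (0.85) and Rsph3b (0.837). Irf9 was most like Cep131 (0.885), Psrc1, Slc39a14, 4930518I15Rik and Parp6 (0.838 to 0.843). None of these 15 genes is on the lists of ISGF3 targets or pathway genes, and such r are the highest of 19962 genes over 13 libraries, so they describe these libraries only.

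ADAR1 edits adenosine to inosine, read as G, and the deposited site tables show whether the RNA of the pathway genes is itself edited. Of the 9 genes, Ifnar1 held 20 listed sites and Jak1 a single one, at position 101249266 of chromosome 4 in intron 1, with too few reads to be tested. The 20 Ifnar1 sites lie within 325 bases, at chr16:91490407-91490731 (mm10, plus strand), in the intron numbered 2 of 5 transcripts (91489820 to 91492630) and in an exon of 1 transcript that retains it (GENCODE M21). Most of them fall in 2 stretches, shown because they hold the edited positions, with the listed adenosines in capitals:
Ifnar1, chr16:91490400-91490500: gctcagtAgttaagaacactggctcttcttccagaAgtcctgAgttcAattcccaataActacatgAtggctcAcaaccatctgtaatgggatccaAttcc
Ifnar1, chr16:91490655-91490738: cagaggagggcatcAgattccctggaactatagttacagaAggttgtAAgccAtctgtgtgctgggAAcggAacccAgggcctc
The first stretch holds 8 of the sites and the second 9.

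The 15 sites used here were those listed for all 13 libraries. The other listed Ifnar1 sites were absent for 1 or more genotypes and had 0 edited reads in every wild-type library. The choice of sites may therefore depend on the levels compared, which was not tested. Over the 15 sites, the mean edited level was 9.56% ± 3.31 (SD, n = 3) in wild type and 10.5% ± 2.03 (n = 3) for P195A/+ animals. It was 5.01% ± 1.73 (n = 4) for P195A/P195A and 6.94% ± 1.90 (n = 3) for P195A/-. By library it was 13.3, 7.09 and 8.28% in the wild-type libraries, 12.4, 8.39 and 10.6% in those of P195A/+, 4.29, 4.25, 3.90 and 7.59% in those of P195A/P195A, and 4.81, 7.57 and 8.44% in those of P195A/-. The 3 lowest libraries were P195A/P195A animals, but replicate 4 of that genotype reached into the wild-type range. These levels rest on 65 edited of 694 reads over all sites in the wild-type libraries, 61 of 598 in those of P195A/+, 48 of 843 in those of P195A/P195A and 39 of 513 in those of P195A/-, and 1 read can cover several sites, so the sites are not independent.

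**Figure D5:**
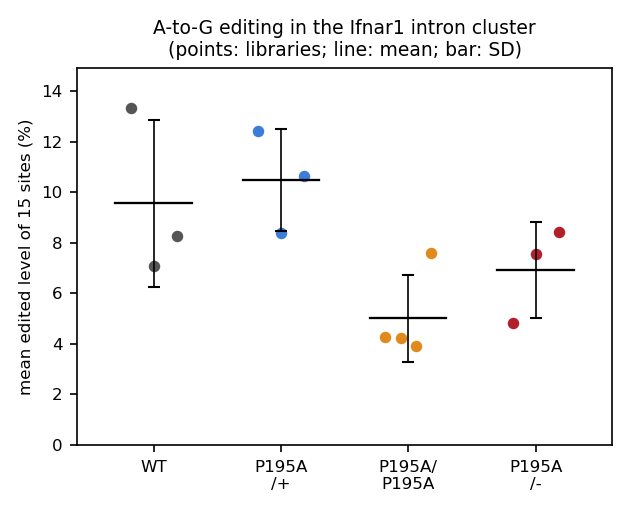
Mean edited level of 15 sites in the Ifnar1 intron in each library, in percent on an axis that starts at 0 (points: libraries; line: mean; bar: SD). P195A/P195A libraries lie at 3.90 to 7.59% and wild-type libraries at 7.09 to 13.3%.

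The difference of P195A/P195A from wild type in this mean was -4.55 percentage points (exact two-sided permutation p = 0.114, where 0.0571 is the smallest p possible; adjusted over 4 comparisons 0.343). Differences of 0.923 for P195A/+ and -2.62 for P195A/- against wild type had exact permutation p of 0.7 and 0.5, with 0.1 the smallest possible. That of P195A/- from P195A/P195A, 1.93, had an exact permutation p of 0.171. With so few animals none of these tests could pass 0.05, so they leave the differences untested.

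Single sites were tested where each library of a comparison had at least 10 reads, with edgeR on edited and unedited reads. In P195A/+ against wild type 10 Ifnar1 sites could be tested, in P195A/P195A against wild type 6, in P195A/- against wild type 5 and in P195A/- against P195A/P195A 0. None passed at an adjusted p under 0.05, beside 0.0143%, 0.208% and 0% of all sites tested in the first 3 comparisons and 0.0846% in the last, and 2, 2 and 0 of the sites had an unadjusted p under 0.05, beside 6.06%, 7.99% and 4.01% of all sites tested. Position 91490435 was edited at 4.55% in P195A/P195A and 21.6% in wild type (log2 odds ratio -2.37; unadjusted p = 0.018, adjusted p = 0.516 by edgeR). Position 91490442 was at 9.68% against 25.0% (-1.56; unadjusted p = 0.0812), and position 91490407, with the most reads, at 10.1% against 12.96% (-0.37; unadjusted p = 0.693). In P195A/+ the first 2 of these sites were at 23.6% and 17.0%. In the P195A/- libraries, with too few reads to be tested, position 91490435 was at 26.9, 33.3 and 0% and 91490442 at 12.5, 20 and 20%. Position 91490473 was at 0% in P195A/+ and in P195A/P195A against 9.09% in wild type (unadjusted p = 0.0399 and 0.0246 by edgeR). Position 91490731 went the other way in P195A/+, at 24.3% against 5.77% (unadjusted p = 0.0433 by edgeR). With 10 to 24 reads a library, only large differences at a site were detectable.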

How the data were processed

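Expression was taken from the deposited gene table of the authors, which holds estimated counts (expected counts) made with fastp 0.19.5 and Salmon on mm10 data per the submitters' processing notes; its index was not stated in the sources used here. Counts were rounded and fitted in 1 edgeR 4.0.16 model (R 4.3.3; quasi-likelihood, robust, TMM, filterByExpr by genotype, no covariate), after tests on simulated data. The low-count filter left 19962 of 54307 entries; GENCODE M21 held the gene IDs of 51482, and the rest had 0.678% of counts. Log2 CPM used a prior count of 2. Editing came from deposited comparison tables with base counts from JACUSA2 2.0.0-RC5, per the file headers with a minimum coverage of 3; sites needed 10 A plus G reads in each library and a pooled level of 1 to 99%, and the authors' per-library tables were not used. Alternatives were DESeq2 1.42.0, limma-voom (limma 3.58.1), other scaling, filters and covariates, and leaving out libraries. The members, lists and comparisons were chosen with earlier results of these data known. All 9 genes were named. Of other lists, genes that passed were named, and some but not all of those with the 3 smallest p per list and comparison. Ifih1 and Ifit3 were named after their values were seen. The result of 1 gene of these lists is not reported here.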

Additional observations from a re-analysis of the deposited data

Results flagged for a closer look

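Irf1 in P195A/P195A was picked out because 1 of its 4 animals lay far from the others. Replicate 3 was at 3.34 CPM and replicates 1, 2 and 4 at 2.75, 2.85 and 2.77, so the gap from replicate 3 to its nearest neighbour was 0.844 of the whole range of the group, above Dixon's 95% critical value for 4 samples. P195A/P195A was the only group large enough to be tested in this way, 9 genes were tested, and chance alone picks out about 1 in 20 such groups. Replicate 3 is also a library at an end of the first principal component.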

How the results depend on the processing

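Of 630 values of the 9 genes under alternatives, 620 had an adjusted p and none passed (lowest 0.123); DESeq2 gave no adjusted p for 10, Irf7 in P195A/- against wild type and against P195A/+ among them. For Irf7, P195A/- against wild type ranged over 1.09 to 1.34, against P195A/P195A over 0.95 to 1.51 and against P195A/+ over 1.35 to 1.90, and the unadjusted p stayed under 0.05 except without P195A/P195A replicates 2 and 3 together, where the difference was 0.95 at an unadjusted p of 0.0509 by edgeR. The direction was opposite in 55 values, all of differences of at most 0.23, and the cause was not tested.

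The replicate numbers were not shown to pair animals, since 5 of 18 same-number pairs had a correlation over 0.1. With the replicate block, values turned to -0.0024 (Jak1, P195A/+ against wild type) and, in P195A/P195A against wild type, to -0.065 (Ifnar2) and -0.32 (Irf7); Irf7 in P195A/- against P195A/P195A was 1.51, and any difference among the 4 genotypes was called for 13 of all genes in place of 23. With only the 2 genotypes compared, Jak1 in P195A/+ against wild type was -0.0014. For P195A/P195A against wild type, animals of 48 days gave -0.018 (Ifnar1) and -0.17 (Tyk2), limma-voom -0.045 and a sex term -0.036 (Irf7), no filter -0.0021 (Jak1), and leaving P195A/P195A replicates 2 and 3 out together -0.021 (Ifnar1), -0.065 (Ifnar2) and -0.036 (Jak1). That last choice, made after seeing the data, gave -0.0083 for Tyk2 in P195A/- against P195A/P195A, and limma-voom -0.0035 for Ifnar2 in P195A/- against P195A/+.

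Leaving out 1 animal at a time, the values that changed direction had these ranges. For P195A/+ against wild type they were Ifnar2 -0.10 to 0.28, Jak1 -0.038 to 0.029, Stat2 -0.14 to 0.056, Irf9 -0.066 to 0.22 and Irf1 -0.31 to 0.098. For P195A/P195A against wild type they were Ifnar2 -0.22 to 0.23, Jak1 -0.064 to 0.058, Stat2 -0.0040 to 0.22, Irf9 -0.16 to 0.067, Irf1 -0.35 to 0.050 and Irf7 -0.33 to 0.19. For P195A/- against wild type they were Ifnar1 -0.060 to 0.0044, Ifnar2 -0.14 to 0.38, Irf1 -0.26 to 0.20, Irf3 -0.040 to 0.26, Irf8 -0.088 to 0.41 and Ifngr2 -0.095 to 0.089. For P195A/- against P195A/P195A they were Ifnar2 -0.18 to 0.37, Tyk2 -0.046 to 0.16 and Irf1 -0.027 to 0.25. For P195A/- against P195A/+ they were Ifnar2 -0.23 to 0.29, Irf1 -0.075 to 0.23 and Irf3 -0.17 to 0.12. Calls over all genes then ranged from 1 to 2 (P195A/+ against wild type), from 5 to 13 (P195A/P195A against wild type), from 2 to 6 (P195A/- against wild type), from 5 to 15 (P195A/- against P195A/P195A), from 3 to 8 (P195A/- against P195A/+), from 11 to 47 (any difference among the 4 genotypes).

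Over all genes, calls for P195A/+ against wild type were 2, but 19 by DESeq2, 7 with no filter and 11 with only the 2 genotypes. For P195A/P195A against wild type they were 10, but 19 by DESeq2, 5 with only the 2 genotypes and 5 with animals of 48 days; for P195A/- against wild type 7, but 200 by DESeq2, 16 with no filter and 16 with only the 2 genotypes. For P195A/- against P195A/P195A they were 8, but 52 by DESeq2, 29 with no filter and 5 with only the 2 genotypes; for P195A/- against P195A/+ 6, but 289 by DESeq2 and 49 with no filter. Any difference was called for 23 genes, but 234 by DESeq2 and 54 with no filter. With a minimum of 20 reads no Ifnar1 site could be tested, and none could be in P195A/- against P195A/P195A. Depth limits Irf7, at 10 to 54 counts a library, and the editing sites, at 10 to 24 reads.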
